A study of Mus musculus with 6 samples.

Results

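The 10 genes described here encode BCL2 family proteins, which decide between survival and death at the mitochondrial outer membrane. They were chosen by symbol, and each of the 10 matched 1 row among the 24421 genes of the RPKM table. The list holds the 3 survival members Mcl1, Bcl2l1 (BCL-XL) and Bcl2, the 2 effectors Bax and Bak1, and the 5 BH3-only members Bcl2l11 (BIM), Bid, Bbc3 (PUMA), Pmaip1 (NOXA) and Bad. RNA was sequenced from F4/80+ CD11b+ macrophages sorted live from visceral white adipose tissue (the fat inside the abdomen). The donors were male C57BL/6N mice, labelled as 12 weeks old, and mice of all 3 groups ate a diet with 60 kcal% of fat and were injected under the skin every 6 days over 30 days. One group received 4-OHE1 (4-hydroxyestrone, a catechol metabolite of estrone) at 10 mg/kg, another E2 (estradiol, the main ovarian estrogen) at 10 mg/kg, and the control group the ethanol vehicle, EtOH. Each group had 2 libraries, and the labels do not say whether these came from separate animals, so the spread behind each p-value may be technical.

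BCL2 family proteins act through a shared groove and a short helix, the BH3 motif. Effectors BAX and BAK perforate the mitochondrial outer membrane, cytochrome c escapes, and caspases are activated. Survival members hold effectors and BH3-only proteins in check, whereas BH3-only proteins, which sense stress, occupy the groove of the survival members or activate the effectors. MCL1 is a short-lived protein on which many blood cell types depend. RNA levels, the quantity measured here, do not give protein levels or the binding between the proteins.

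The BH3 coding sequence is shown for 1 survival member that fell, 1 that rose, 1 effector and the BH3-only member that fell. All of these genes encode the BH3 motif. Each stretch of 45 bases was read from the GENCODE transcript, and capitals mark the 6 codons from the conserved leucine to the conserved aspartate of the motif.
Mcl1: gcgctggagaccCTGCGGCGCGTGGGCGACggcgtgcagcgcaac
Bcl2l1: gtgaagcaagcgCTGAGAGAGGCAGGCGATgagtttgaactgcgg
Bax: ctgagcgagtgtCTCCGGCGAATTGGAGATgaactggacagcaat
Bid: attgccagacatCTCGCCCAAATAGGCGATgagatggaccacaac
On GRCm38 these lie in exon 1 of Mcl1 (chr3:95659424-95659468, plus strand), exon 2 of Bcl2l1 (chr2:152829691-152829735, minus strand), exon 3 of Bax (chr7:45465991-45466035, minus strand) and exon 4 of Bid (chr6:120897283-120897327, minus strand). The Mcl1 stretch had 19 of 45 bases in common with that of Bcl2l1, 24 with Bax and 18 with Bid.

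Exonic depth was 5764342 and 4515276 reads in the 4-OHE1 libraries, 5349386 and 5606659 in E2, and 18697456 and 35293924 in EtOH, so the EtOH values are the most precise. The share of tags in exons was 62.5% and 60.8% in 4-OHE1, 75.8% and 72.4% in E2, and 84.6% and 85.1% in EtOH. RPKM, reads normalised to exon length and to library size, divides in the authors' scaling by all tags. Under it the median log2 change of all tested genes was -0.44 in 4-OHE1 against EtOH, -0.18 in E2 against EtOH and -0.25 in 4-OHE1 against E2. Relative to exon reads, a second scaling, these medians were -0.04, -0.01 and -0.02. A gene is said to have risen or fallen only where limma gave an adjusted p below 0.05 under both scalings in the same direction. Printed log2 changes are those of RPKM + 1 relative to exon reads. Of both adjusted p-values the larger is printed. Levels, and statements that groups overlap, are for RPKM as deposited. Macrophage markers summed to 3957 to 4066 RPKM over 8 genes in 4-OHE1, 5578 to 5856 in E2 and 8189 to 8329 in EtOH. Of the 8, 7 were lower and Mertk was higher in both 4-OHE1 libraries than in both EtOH libraries, in RPKM as deposited. Relative to exon reads, 4-OHE1 values are multiplied by 1.36 and 1.39 and EtOH values by 1.00 and 1.00. On that scale Csf1r was higher in 4-OHE1 than in EtOH, Ptprc overlapped, and the rest of the 7 stayed lower. The 8 T cell markers summed to 7.09 to 9.67 RPKM in 4-OHE1, 7.87 to 8.51 in E2 and 7.46 to 8.16 in EtOH, most of it Cd4. Cd3e, Cd3g, Cd8a and Lat were at 0 in both 4-OHE1 libraries, whereas Lck and Cd247 were higher there than in both EtOH libraries. The 5 B cell markers summed to 8.62 to 11.9 RPKM in 4-OHE1, 9.40 to 10.4 in E2 and 9.10 to 10.3 in EtOH, most of it Cd79b, with Ms4a1 at 0 in both 4-OHE1 libraries and Cd79a higher there than in both EtOH libraries. The NK cell, neutrophil, eosinophil and mast cell lists summed to at most 3.83 RPKM in any library. Of 7 adipocyte markers, Adipoq, Cfd, Car3 and Cidec were higher and Lep and Lpl lower in both 4-OHE1 and in both E2 libraries than in both EtOH libraries. The list summed to 292 to 312.5 RPKM in 4-OHE1, 364.9 to 387.3 in E2 and 725.6 to 727.3 in EtOH, most of it Lpl, which macrophages also express. Dendritic cell markers, of which Itgax, also a macrophage gene, was the largest, summed to 5.63 to 8.88 RPKM in 4-OHE1, 11.3 to 12.7 in E2 and 25.7 to 27.0 in EtOH. Of these 5 markers, Itgax and Ccr7 were lower and Zbtb46 higher in both 4-OHE1 libraries than in both EtOH libraries. Stromal cell markers summed to 126.4 to 127.7 RPKM in 4-OHE1, 167.1 to 171 in E2 and 236 to 240.3 in EtOH. The 5 endothelial markers summed to 15.9 to 17.0 RPKM in 4-OHE1, 14.6 to 16.2 in E2 and 21.1 to 22.7 in EtOH. Pecam1, Cdh5 and Tie1 were lower and Kdr higher in both 4-OHE1 libraries than in both EtOH libraries. The part of other cells in the results below was not tested, and in bulk RNA fewer cells of a type and less RNA per cell cannot be told apart.

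In 4-OHE1 the survival members moved in opposite directions: Mcl1 fell and Bcl2l1 rose against EtOH, and among the BH3-only members Bid fell. In 4-OHE1 against EtOH 3 of 10 members were called, beside 19.6% of the 10950 genes tested. Of the 3, 1 was higher, as were 5.74% of all genes, and 2 were lower, as were 13.9%. In E2 against EtOH 1 of 10 was called, Pmaip1, beside 3.93% of genes. It was higher, as were 1.75% of all genes, and 0 members were lower, beside 2.17%. At an unadjusted p below 0.05 limma had 3 members in that comparison, beside 1485 of the 10950 genes. At an adjusted p edgeR and DESeq2 had 3 members each, beside 7.55% and 9.59% of genes. In 4-OHE1 against E2 2 of 10 were called, Mcl1 and Bid, beside 9.64%. Both were lower, as were 7.14% of all genes, and 0 members were higher, beside 2.5%. All 10 members passed the filter of a mean of 1 RPKM. The median log2 change of the members was -0.05 in 4-OHE1 against EtOH, 0.08 in E2 against EtOH and -0.25 in 4-OHE1 against E2, against -0.04, -0.01 and -0.02 over all tested genes. Both estrogen groups were compared with the same 2 EtOH libraries.

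**Figure D1:**
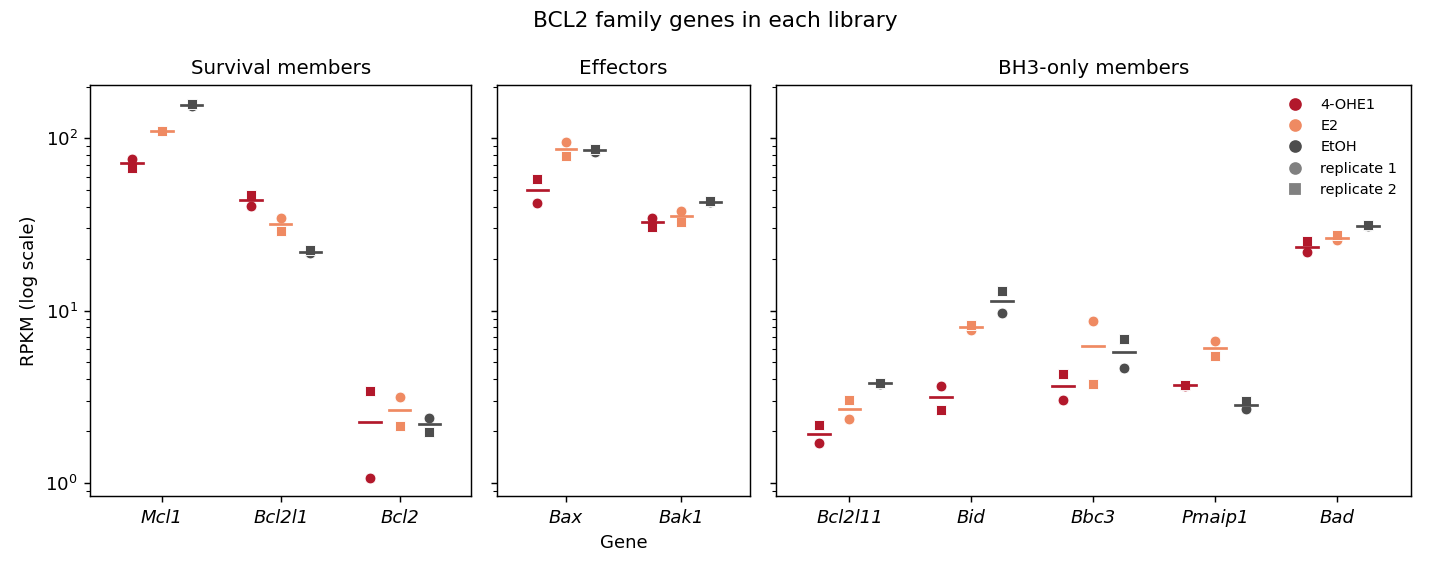
RPKM of each gene on a log axis, with 1 point per library (circle, replicate 1; square, replicate 2) and a bar at the mean of 2 libraries, in the order 4-OHE1, E2, EtOH. Mcl1 stood at 75.5 and 67.7 RPKM in 4-OHE1 against 155 and 159 in EtOH, Bcl2l1 at 40.4 and 47.0 against 21.5 and 22.4, and the points of Bcl2 overlap.

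Mcl1 (NM_008562, mm9 chr3:95462643-95467101, plus strand) was the most abundant member in every group. It stood at 75.5 and 67.7 RPKM in 4-OHE1, 109.8 and 110.9 RPKM in E2, and 155 and 159 RPKM in EtOH, from 2425 and 1750, 2698 and 2989, and 11935 and 23000 reads. The 3 groups did not overlap, and EtOH was the highest. In 4-OHE1 against EtOH Mcl1 fell by 0.67 on the log2 scale (SE 0.075, 95% confidence interval -0.85 to -0.49, adjusted p = 0.0019). That call was kept in 15 of 15 alternative settings, and the authors' scaling alone gave -1.13. The settings with either scaling alone keep any such call by construction, here and below. In 4-OHE1 against E2 it fell by 0.36 (SE 0.075, adjusted p = 0.0315; -0.62 in the authors' scaling). Without EtOH replicate 1 or 2, or without E2 replicate 1 or 2, this call was lost at an adjusted p of 0.0911 to 0.121, and in a fit of only the 2 groups it was lost at 0.12. In E2 against EtOH the change was -0.31 (95% confidence interval -0.49 to -0.13, adjusted p = 0.0731), which did not pass. It passed without 4-OHE1 replicate 1 (adjusted p = 0.029) or 2 (0.0276) and in edgeR on recovered reads (0.0261), but not with replicate number as a block (0.125).

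Bcl2l1 (NM_009743, mm9 chr2:152606400-152657464, minus strand), which encodes BCL-XL, ran the other way. Its levels were 40.4 and 47.0 RPKM in 4-OHE1, 34.7 and 29.1 RPKM in E2, and 21.5 and 22.4 RPKM in EtOH, from 900 and 843, 591 and 545, and 1149 and 2246 reads. Again the 3 groups did not overlap, but here EtOH was the lowest. Bcl2l1 rose in 4-OHE1 against EtOH by 1.41 on the log2 scale (SE 0.13, 95% confidence interval 1.11 to 1.71, adjusted p = 0.00193), and kept the call in 15 of 15 alternatives. This was a 1.99-fold difference in mean RPKM as deposited and 2.66-fold in RPKM + 1 relative to exon reads. E2 against EtOH gave 0.70 (95% confidence interval 0.40 to 1.01, adjusted p = 0.066), and 4-OHE1 against E2 gave 0.71 (0.40 to 1.01, adjusted p = 0.0531), neither of which passed. Both passed relative to exon reads alone (adjusted p = 0.0302 and 0.0197) and in edgeR (0.00418 and 0.00591). The edgeR and DESeq2 alternatives count another Bcl2l1 transcript (NM_001289716). E2 against EtOH also passed without 4-OHE1 replicate 1 (0.0292) or 2 (0.0276), but not with replicate number as a block (0.1). 4-OHE1 against E2 did not pass with that block (0.0766) or in a fit of only the 2 groups (0.12). With 1 library left out, the log2 changes were 0.61 to 0.79 in E2 against EtOH and 0.58 to 0.83 in 4-OHE1 against E2. The authors' deposited table, which also measures NM_001289716, gives a log2 fold change of 1.36 for 4-OHE1 over EtOH (adjusted p = 4.92e-15) and 0.71 for E2 over EtOH (adjusted p = 1.22e-08).

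Bcl2, the remaining survival member, was the least abundant of the 3. It stood at 1.07 and 3.43 RPKM in 4-OHE1, 3.14 and 2.13 RPKM in E2, and 2.39 and 1.98 RPKM in EtOH. The libraries of 4-OHE1 lay on either side of all others, and the log2 change against EtOH was 0.25 (95% confidence interval -0.76 to 1.25, adjusted p = 0.9). These values cover a short isoform (NM_177410, 2123 bases of exon). Over the longer Bcl2 transcript of the pairwise tables (NM_009741, 7205 bases), Bcl2 had 14.8 and 33.2 CPM (relative to exon reads) in 4-OHE1, 14.8 and 13.6 in E2, and 14.5 and 15.2 in EtOH. Over this longer transcript only 4-OHE1 replicate 2 stood apart, and 4-OHE1 replicate 1 was close to the E2 and EtOH libraries.

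Within a library, the ratio of RPKM between genes does not depend on the scaling. Mcl1 stood at 1.87 and 1.44 times the level of Bcl2l1 in 4-OHE1, 3.17 and 3.81 times in E2, and 7.21 and 7.11 times in EtOH, and the groups did not overlap. Mcl1 made up 64.6% and 57.3% of the summed RPKM of the 3 survival genes in 4-OHE1, 74.4% and 78.0% in E2, and 86.7% and 86.7% in EtOH. The whole survival sum, by contrast, was 1.53 and 1.33 times the effector sum in 4-OHE1, 1.11 and 1.27 times in E2, and 1.42 and 1.41 times in EtOH. For that ratio the 4-OHE1 libraries lay on either side of the EtOH libraries. Against the BH3-only sum, the survival sum was 3.46 and 3.11 times as high in 4-OHE1, 2.90 and 2.97 times in E2, and 3.45 and 3.17 times in EtOH. The exact permutation test of 2 libraries against 2 cannot give a two-sided p below 0.333, so these ratios are described and not tested. The sums hold only the listed members. The survival sum leaves out Bcl2a1b, at 46.1 and 37.9 RPKM in 4-OHE1 against 67.5 and 72.8 in EtOH. The BH3-only sum leaves out Bmf, at 26.8 and 21.9 RPKM in 4-OHE1 against 5.13 and 5.20 in EtOH. Adding Bmf would lower the survival to BH3-only ratio more in 4-OHE1 than in EtOH. The closeness of that ratio between 4-OHE1 and EtOH therefore depends on the list.

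**Figure D2:**
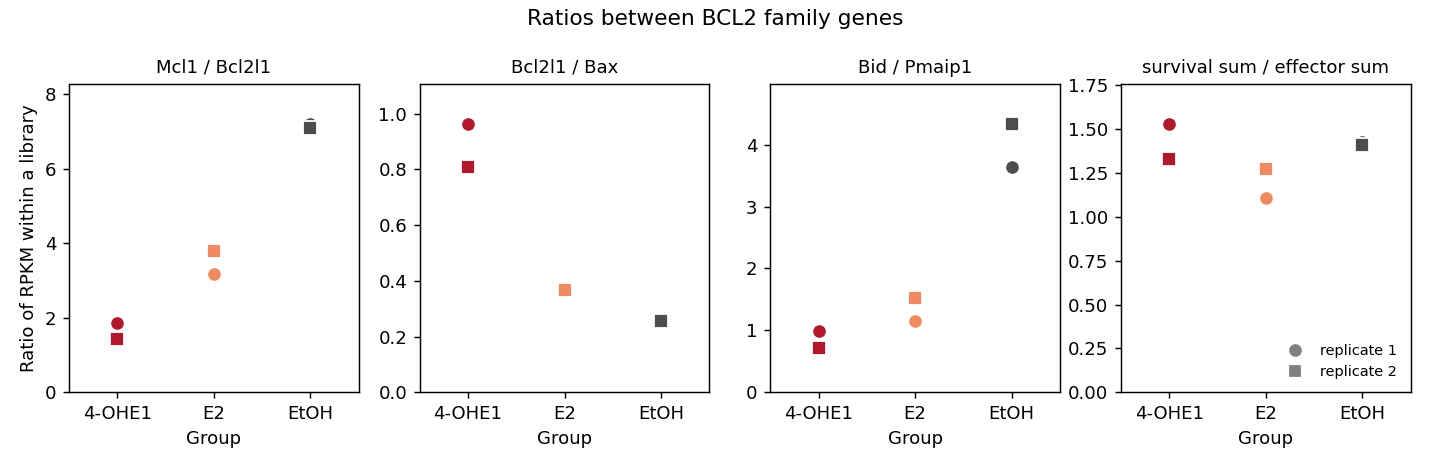
Ratios of RPKM between genes, or between sums of genes, within each library (circle, replicate 1; square, replicate 2; points that coincide hide each other), for 4-OHE1, E2 and EtOH. Mcl1 over Bcl2l1 is 1.87 and 1.44 in 4-OHE1 against 7.21 and 7.11 in EtOH, whereas survival sum over effector sum is 1.53 and 1.33 in 4-OHE1 around 1.42 and 1.41 in EtOH.

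Neither effector passed in any comparison. Bax stood at 41.9 and 58.2 RPKM in 4-OHE1, 95.5 and 79.1 RPKM in E2, and 83.3 and 87.1 RPKM in EtOH. Both 4-OHE1 libraries were below all others, and E2 and EtOH overlapped. The log2 change of Bax in 4-OHE1 against EtOH was -0.32 (95% confidence interval -0.73 to 0.09, adjusted p = 0.209). It passed under the authors' scaling, which does not allow for the lower share of exon reads (-0.77, adjusted p = 0.011), and without 4-OHE1 replicate 2 (-0.57, adjusted p = 0.0115), whereas without 4-OHE1 replicate 1 it was -0.07 (adjusted p = 0.635). In 4-OHE1 against E2 it was -0.54 (95% confidence interval -0.95 to -0.14, adjusted p = 0.0861), and it was -0.80 without 4-OHE1 replicate 2, which passed (adjusted p = 0.00873), and -0.29 without replicate 1 (adjusted p = 0.0995). Bak1, the other pore former, stood at 34.5 and 30.7 RPKM in 4-OHE1, 37.9 and 32.6 RPKM in E2, and 42.5 and 43.1 RPKM in EtOH. Relative to exon reads its change in 4-OHE1 against EtOH was 0.07 (95% confidence interval -0.18 to 0.31, adjusted p = 0.665), whereas the authors' scaling alone gave -0.38 (adjusted p = 0.0348). Bak1 overlaps Ggnbp1 on the opposite strand, so reads of the pair may not be told apart. Bcl2l1 came close to Bax in 4-OHE1: the Bcl2l1 to Bax ratio was 0.96 and 0.81 there, 0.36 and 0.37 in E2, and 0.26 and 0.26 in EtOH.

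Among the BH3-only members, Bid (NM_007544, mm9 chr6:120843137-120866838, minus strand) and Pmaip1 changed. Bid, which death receptors activate through caspase 8, stood at 3.63 and 2.65 RPKM in 4-OHE1, 7.68 and 8.30 RPKM in E2, and 9.75 and 13.02 RPKM in EtOH, from 63 and 37, 102 and 121, and 406 and 1017 reads. The 3 groups did not overlap, with 4-OHE1 the lowest. Bid fell in 4-OHE1 against EtOH by 1.22 on the log2 scale (SE 0.20, 95% confidence interval -1.71 to -0.73, adjusted p = 0.00793), and 14 of 15 alternatives kept the call. Without EtOH replicate 2 the change was -1.03 (adjusted p = 0.0983). In 4-OHE1 against E2 Bid fell by 0.94 (SE 0.20, adjusted p = 0.0348). That call was lost without EtOH replicate 1 or 2, or without E2 replicate 1 or 2, at an adjusted p of 0.0933 to 0.156, and also in a fit of only the 2 groups (0.091) and without a filter on low values (0.0756). E2 against EtOH gave -0.28 (95% confidence interval -0.77 to 0.22, adjusted p = 0.582).

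Pmaip1 encodes NOXA, which binds MCL1 and is a p53 target. It stood at 3.64 and 3.71 RPKM in 4-OHE1, 6.63 and 5.46 RPKM in E2, and 2.68 and 3.003 RPKM in EtOH, from 89 and 73, 124 and 112, and 157 and 330 reads. The E2 libraries were above all others and the groups did not overlap. Pmaip1 rose in E2 against EtOH by 1.04 on the log2 scale (SE 0.18, 95% confidence interval 0.61 to 1.47, adjusted p = 0.0378), and 8 of 14 alternatives kept the call. Without EtOH replicate 1 or 2, or without E2 replicate 1 or 2, the changes were 0.95 to 1.13 with an adjusted p of 0.11 to 0.389, and without a filter on low values it was 0.0778. The authors' deposited table gives 1.25 for E2 over EtOH (adjusted p = 5.21e-07). In 4-OHE1 against EtOH the change was 0.66 (95% confidence interval 0.23 to 1.09, adjusted p = 0.228), and in 4-OHE1 against E2 it was -0.38 (-0.81 to 0.05, adjusted p = 0.203), neither of which passed. Against EtOH the change in 4-OHE1 passed relative to exon reads alone (adjusted p = 0.0377) and in edgeR (0.0428), but not under the authors' scaling (0.29, adjusted p = 0.228). The Bid to Pmaip1 ratio was 0.996 and 0.713 in 4-OHE1, 1.16 and 1.52 in E2, and 3.64 and 4.34 in EtOH.

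Bcl2l11, Bbc3 and Bad did not pass in any comparison. Bcl2l11 encodes BIM, which binds all survival members and activates effectors. Its levels were 1.70 and 2.16 RPKM in 4-OHE1, 2.33 and 3.03 RPKM in E2, and 3.73 and 3.82 RPKM in EtOH. As deposited the groups did not overlap, but relative to exon reads 4-OHE1 (2.30 and 3.01) and E2 (2.61 and 3.55) did. Relative to exon reads the change in 4-OHE1 against EtOH was -0.39 (95% confidence interval -0.94 to 0.15, adjusted p = 0.244), whereas under the authors' scaling it was -0.71 and passed (adjusted p = 0.031). Bbc3 encodes PUMA, a p53 target. It stood at 3.03 and 4.31 RPKM in 4-OHE1, 8.71 and 3.74 RPKM in E2, and 4.64 and 6.86 RPKM in EtOH, and the E2 libraries lay on either side of the EtOH libraries. Bad, whose protein is held inactive by growth factor signalling, stood at 21.8 and 25.2 RPKM in 4-OHE1, 25.6 and 27.4 RPKM in E2, and 31.1 and 31.3 RPKM in EtOH. As deposited the groups did not overlap, but relative to exon reads the change of Bad in 4-OHE1 against EtOH was 0.05 (95% confidence interval -0.25 to 0.34, adjusted p = 0.812).

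**Figure D3:**
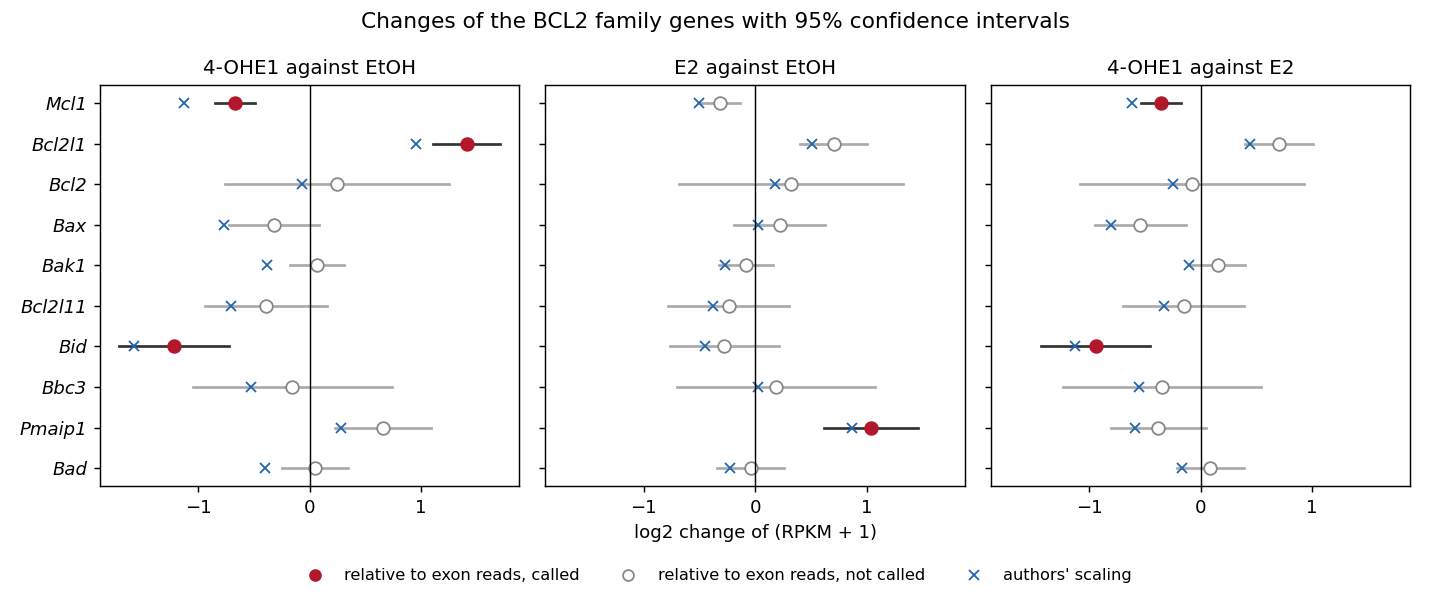
Log2 change of each gene in 4-OHE1 against EtOH, E2 against EtOH and 4-OHE1 against E2, relative to exon reads (circle, filled where called) with its 95% confidence interval, and with the authors' scaling (cross). In 4-OHE1 against EtOH, Mcl1 at -0.67, Bcl2l1 at 1.41 and Bid at -1.22 are filled, and Bcl2, Bak1 and Bad have a circle right of 0 and a cross left of it.

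The order of levels per length also differed between groups. In EtOH it ran Mcl1, Bax, Bak1, Bad, Bcl2l1, Bid, Bbc3, Bcl2l11, Pmaip1 and Bcl2, and no neighbours overlapped. In E2 Bcl2l1 had rank 4 and overlapped Bak1 above it, Bid overlapped Bbc3, Bbc3 overlapped Pmaip1, and Bcl2l11 overlapped Bcl2. In 4-OHE1 Bcl2l1 had rank 3 and overlapped Bax above it, and Pmaip1, Bbc3, Bid, Bcl2 and Bcl2l11 closed the order, each overlapping its neighbour.

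The genes whose pattern over the 6 libraries was most like that of Bcl2l1, by the root mean square difference of centred log2(RPKM + 1), were Tmod1 (0.058), Cdk11b (0.070) and Preb (0.076). Those most like Bid were Lage3 (0.093), A130077B15Rik (0.093) and P2ry2 (0.106), and the last was at 0.42 and 0 RPKM in 4-OHE1.

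In the window of 250 bases before the RefSeq start (GRCm38.p6), promoters of 9 members were read on both strands, against 32851 RefSeq promoters of the same length. Pmaip1, the only member called in E2 against EtOH, was not among the 9. The estrogen response element repeat AGGTCA was in 0 of 9, against 14.0% of all promoters, and the glucocorticoid response element repeat AGAACA in 0 of 9, against 16.1%. The FOXO motif GTAAACA was in the promoter of Bcl2l11 only, against 3.17% of all. The GC box GGGCGG was in 6 of 9, those of Mcl1, Bcl2, Bax, Bcl2l11, Bid and Bbc3, against 32.7%. For some genes the RefSeq start differs from that of the transcript counted, and a match is no evidence of binding.

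Other genes of the pathway were taken from 7 lists, with 57 genes tested. Of these limma called 12 in 4-OHE1 against EtOH (21.1%, beside 19.6% of all genes), 3 in E2 against EtOH (5.26%, beside 3.93%) and 10 in 4-OHE1 against E2 (17.5%, beside 9.64%). Of the 16 further BCL2 family genes, 11 were tested, and in 4-OHE1 against EtOH 1 rose, 0 fell and 10 did not pass. It was Bmf, a BH3-only gene, at 26.8 and 21.9 RPKM in 4-OHE1, 14.1 and 10.7 RPKM in E2, and 5.13 and 5.20 RPKM in EtOH. The groups did not overlap, and Bmf rose in all 3 comparisons: by 2.48 in 4-OHE1 against EtOH (adjusted p = 0.000432, kept in 15 of 15 alternatives), 1.29 in E2 against EtOH (adjusted p = 0.0172) and 1.19 in 4-OHE1 against E2 (adjusted p = 0.0146). Without EtOH replicate 1 or 2, or E2 replicate 1 or 2, the call in E2 against EtOH was lost (adjusted p = 0.0658 to 0.175). Without E2 replicate 1 or 2 the call in 4-OHE1 against E2 was lost (0.0517 to 0.0708). In 4-OHE1 the level of Bmf per length was above those of Bid, Bbc3 and Pmaip1, whereas in EtOH it was below that of Bid. Bcl2a1b, a survival gene of blood cells, stood at 46.1 and 37.9 RPKM in 4-OHE1, 75.0 and 72.4 RPKM in E2, and 67.5 and 72.8 RPKM in EtOH. It fell in 4-OHE1 against E2 by 0.54 (adjusted p = 0.0245), a call lost without EtOH replicate 1 or 2, or E2 replicate 1 or 2, and its near-identical copies Bcl2a1a and Bcl2a1d make its count uncertain.

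Downstream of the mitochondria, Cycs, which encodes cytochrome c, stood at 2.34 and 2.78 RPKM in 4-OHE1 against 6.58 and 8.22 RPKM in EtOH, and it fell by 0.89 on the log2 scale (adjusted p = 0.0168). Of the 6 caspase inhibitor genes limma called 0 in 4-OHE1 against EtOH, with 1 at an unadjusted p below 0.05. edgeR and DESeq2 called 3 each, beside 28.9% and 24.1% of all genes. Of 6 tested death receptor genes 1 fell, Fadd, the adaptor that recruits caspase 8 upstream of BID, at 2.46 and 1.60 RPKM in 4-OHE1 against 6.78 and 7.21 RPKM in EtOH (-1.10, adjusted p = 0.0135). The calls of Cycs and Fadd were lost without EtOH replicate 1 or 2, with adjusted p of 0.0993 to 0.205.

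Of 9 tested genes of the p53 list 3 rose in 4-OHE1 against EtOH, 0 fell and 6 did not pass, where 5.74% of all genes rose and 13.9% fell. edgeR called 6 of the 9 and DESeq2 5, in either direction, beside 28.9% and 24.1% of all genes. Cdkn1a, the cell cycle inhibitor p21, stood at 88.1 and 95.02 RPKM in 4-OHE1, 83.7 and 75.3 RPKM in E2, and 49.96 and 51.4 RPKM in EtOH. It rose by 1.30 in 4-OHE1 against EtOH (adjusted p = 0.000929) and by 0.83 in E2 against EtOH (adjusted p = 0.013). Trp53inp1, a p53 target, stood at 19.3 and 23.8 RPKM in 4-OHE1, 7.87 and 9.95 RPKM in E2, and 2.37 and 2.80 RPKM in EtOH, and it rose by 3.09 (adjusted p = 0.000268) and by 1.64 (adjusted p = 0.00911). In E2 against EtOH both calls were lost without EtOH replicate 1 or 2, or E2 replicate 1 or 2 (adjusted p = 0.0594 to 0.174), whereas 15 of 15 alternatives kept both in 4-OHE1 against EtOH. Sesn2, the remaining gene called, had a log2 change of 1.10 (adjusted p = 0.0479), which 9 of 15 alternatives kept and which was lost without EtOH replicate 1 or 2 or 4-OHE1 replicate 2, among others (adjusted p = 0.072 to 0.269). Trp53 itself stood at 16.3 and 10.1 RPKM in 4-OHE1 against 29.1 and 29.8 RPKM in EtOH (-0.71, adjusted p = 0.0516) and did not pass, and the median log2 change of the 9 genes was -0.39.

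Of the 6 genes that act on MCL1 turnover or form VDAC channels of the outer membrane, 1 rose in 4-OHE1 against EtOH and 3 fell. Over all genes 5.74% rose and 13.9% fell. edgeR and DESeq2 called 6 each, in either direction, beside 28.9% and 24.1% of all genes. Fbxw7, part of a ubiquitin ligase that targets MCL1, stood at 7.82 and 8.05 RPKM in 4-OHE1 against 3.90 and 4.602 RPKM in EtOH (1.19, adjusted p = 0.00955). Usp9x (0.68, adjusted p = 0.19) and Huwe1 (0.85, adjusted p = 0.0536), the other genes listed for MCL1 turnover, did not pass. Vdac2, the channel that binds BAK, stood at 52.8 and 47.6 RPKM against 112 and 115 RPKM (-0.71, adjusted p = 0.0038), with Vdac1 at -0.50 (adjusted p = 0.0145) and Vdac3 at -0.82 (adjusted p = 0.00417). Without EtOH replicate 1 or 2 the calls of Fbxw7, Vdac1 and Vdac3 were lost (adjusted p = 0.0552 to 0.158), and that of Vdac2 was kept. Of 5 tested FOXO and CHOP genes limma, also at an unadjusted p below 0.05, edgeR and DESeq2 called 0 in 4-OHE1 against EtOH.

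**Figure D4:**
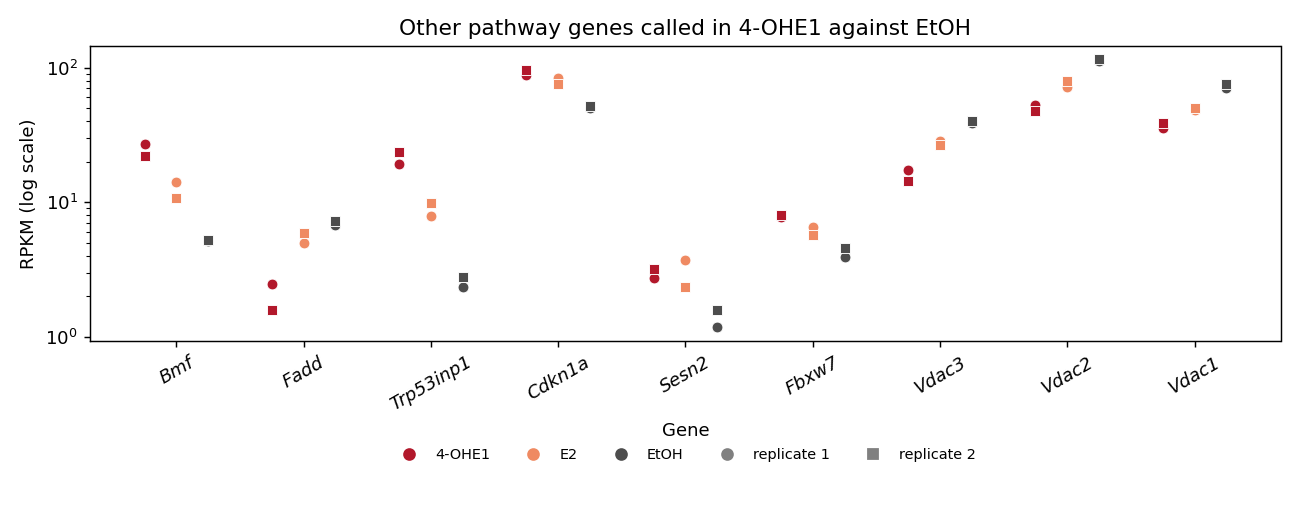
RPKM, on a log axis, of the genes called in 4-OHE1 against EtOH in the pathway lists other than the apoptosome, with 1 point per library (circle, replicate 1; square, replicate 2) for 4-OHE1, E2 and EtOH. Bmf and Trp53inp1 are highest in 4-OHE1 and lowest in EtOH, at 26.8 and 21.9 against 5.13 and 5.20 RPKM and at 19.3 and 23.8 against 2.37 and 2.80 RPKM, and the Vdac genes run the other way.

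In E2 against EtOH limma called Bmf, Cdkn1a and Trp53inp1 in the 7 lists, edgeR called 7 genes and DESeq2 8. Over all genes edgeR called 7.55% and DESeq2 9.59%. In 4-OHE1 against E2, Trp53inp1 (1.45, adjusted p = 0.00876), Sesn1 (1.08, adjusted p = 0.00534) and the caspase inhibitor list's Birc5, known mainly for its part in cell division (1.20, adjusted p = 0.0351), were higher beside Bmf. Lower in that comparison were Cycs (-0.96, adjusted p = 0.0256), Fadd (-0.95, adjusted p = 0.0389), Atf4 (-0.40, adjusted p = 0.0173) and Vdac3 (-0.51, adjusted p = 0.0389), beside Bcl2a1b. Without E2 replicate 1 each of these calls was lost, Trp53inp1 at 0.0672 and Sesn1 at 0.0517.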

How the data were processed

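Per the labels' protocols, mRNA of the sorted cells was prepared with KAPA reagents for Illumina sequencing. The submitters' processing notes name mm9, STAR, HOMER, DESeq2 and edgeR. Per the file headers, the authors deposited RPKM for the 6 libraries and pairwise tables holding a scaled signal, log2 fold changes and adjusted p-values. The signal columns came out as whole reads (119614 of 119614 values within 0.05 of a read) after division by 1 factor per library. Exon totals were 4515276 to 35293924 reads, and their number limits the precision.

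Main tests used limma-trend (version 3.58.1 in R 4.3.3) on log2(RPKM + 1), two-sided, with all 6 libraries in 1 fit and Benjamini-Hochberg adjustment over the 10950 genes averaging 1 RPKM or more. Adding 1 RPKM understates changes of low genes. It was run with the authors' scaling and relative to exon reads, and tested on simulated data. edgeR 4.0.16 (quasi-likelihood) and DESeq2 1.42.0 on recovered reads were among 15 alternatives, and 266 genes whose transcript differed between pairwise tables were left out of them. For 4 members, Bcl2l1, Bcl2, Bcl2l11 and Bad, the recovered reads are of another transcript than the RPKM. Members and lists were chosen with earlier results of these data known. Named pathway genes are up to 4 called genes per list and comparison with the largest changes. Some genes of these lists are not reported here.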

Additional observations from a re-analysis of the deposited data

How the results depend on the processing

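Of 441 values recomputed under the alternatives, 372 kept their direction and their side of the threshold. Several alternatives, such as the replicate block or another filter, change the p-value alone, so the direction could not differ there. With the authors' scaling alone the change in 4-OHE1 against EtOH turned to -0.382 for Bak1 and -0.398 for Bad, both past the threshold. That scaling alone called 789 genes in E2 against EtOH (193 higher, 596 lower), 4957 in 4-OHE1 against EtOH (629 and 4328) and 2436 in 4-OHE1 against E2 (274 and 2162). Relative to exon reads alone the splits were 348 and 238, 1399 and 1521, and 607 and 782. edgeR called 919, 3523 and 1748 genes in these comparisons and DESeq2 1077, 3351 and 1819, and a fit of only the 2 groups compared called 1072 genes in E2 against EtOH and 411 in 4-OHE1 against E2, against 430, 2150 and 1056 with all libraries and both scalings. Leaving out 1 library gave 50 to 1067 genes in E2 against EtOH, 593 to 3225 in 4-OHE1 against EtOH and 179 to 2292 in 4-OHE1 against E2, and 0 to 3, 2 to 4 and 0 to 3 members. There the lone library of a group is assumed to vary like the other groups.

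In E2 against EtOH, 0 members were called without a filter, beside 1.98% of genes. The authors' scaling alone called 2, beside 7.21%, and exon reads alone 2, beside 5.35%. edgeR, DESeq2 and a fit of only the 2 groups called 3 each, beside 7.55%, 9.59% and 9.73%. In 4-OHE1 against EtOH the authors' scaling alone called 7 members, beside 45.3% of genes. In 4-OHE1 against E2, 1 member was called without a filter, beside 4.63%, and 4 in DESeq2, beside 13.1%. With only the 2 groups compared 0 were called, beside 3.79%. Libraries with the same replicate number share an ID number in the labels, which do not say what it stands for. The correlation of same-numbered deviations was -0.009 between EtOH and E2, -0.02 between EtOH and 4-OHE1, and 0.01 between E2 and 4-OHE1. With 2 libraries a group, this cannot decide whether same-numbered libraries were paired. With the replicate block 330, 1911 and 856 genes were called, and 0, 3 and 0 members. With a minimum mean of 5 RPKM 7 members were left to test. At 37 to 124 reads per estrogen library, Bid and Pmaip1 are limited by depth.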
